A study of Homo sapiens with 6 samples.

Results

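The miR-31 hairpin gives a pair of mature miRNAs, miR-31-5p (hsa-miR-31-5p in the tables) from its 5′ arm and miR-31-3p (hsa-miR-31-3p) from its 3′ arm. Both were chosen by name, with earlier results of these data known, and both had counts in each of the 6 libraries. They are 2 of the 1727 known miRNA names counted over the series. The libraries came from BEAS-2B, an established immortalised human line of bronchial epithelial cells. In 3 libraries the cells had received the empty plasmid pcDNA3.1 (control), and in 3 the plasmid pcDNA-PRMT1, labelled PRMT1 over-expression, each for 48 h. PRMT1 is the main enzyme that places asymmetric dimethyl marks on arginine residues of histones and other proteins. The question was how miRNAs of these cells respond to it. Besides small RNA, the tables hold some reads from exons of longer genes. These were not searched for PRMT1, so PRMT1 messenger RNA was not checked here. Whether the replicates are separate cultures is not in the labels, so a p-value here reflects only how these samples vary, possibly for technical reasons.

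A hairpin is cut out of a longer transcript and trimmed to a short duplex, of which an Argonaute protein usually keeps 1 strand, the guide, while the other, the passenger, is mostly degraded. The guide finds messenger RNAs mainly through its seed, bases 2 to 8. MiR-31-5p is the usual guide of miR-31, and miR-31-3p was first described as its passenger. In epithelia miR-31 is known from keratinocytes and squamous tumours and from lung and breast cancer, where it has been described both as a promoter of growth and as a restraint on metastasis. Tumour suppressors such as LATS2 and PPP2R2A, the integrin ITGA5, the small GTPase RHOA and HIF1AN, which restrains the hypoxia factor, are among its known targets.

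The sequences below show the seed that sets miR-31-5p apart from other miRNAs. They are RefSeq entries on GRCh38.p14. Capitals mark bases 2 to 8 in both mature miRNAs and the miR-31-5p stretch in the hairpin, where it runs from base 8 to base 28. MiR-6809-5p is shown because it shares bases 2 to 7 with miR-31-5p.
miR-31-5p: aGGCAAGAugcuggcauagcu
miR-31 hairpin: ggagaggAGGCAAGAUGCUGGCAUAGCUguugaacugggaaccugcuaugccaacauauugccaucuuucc
miR-6809-5p: uGGCAAGGaaagaagaggauca
Of the 2 arms, only miR-31-5p was matched to a mature entry, and miR-31-3p is given by name. Of 2370 mature miRNAs in the RefSeq table, 0 others carry the whole seed of miR-31-5p, and 1 other, miR-6809-5p, carries its bases 2 to 7. MiR-6809-5p had no row in the tables analysed. The longest run that miR-31-5p shares with another mature miRNA is 9 bases, and the longest that its hairpin shares with any of 1561 other hairpins, on either strand, is 15 bases.

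The hairpin gene MIR31 lies on the minus strand of chromosome 9 at 21512115 to 21512185 on GRCh38, with miR-31-5p at 21512158 to 21512178. In GENCODE release 29 it sits in an intron of the long non-coding gene MIR31HG (chromosome 9, 21455642 to 21559669, minus strand), whose 1 annotated transcript spans it. The submitters' processing notes name another build, GRCh37.p13, so these positions come from the annotation and not from the tables.

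Total counts ran from 23.95 M to 25.79 M per library, and known miRNA counts from 11.54 M to 16.42 M. Control library 2 stood apart, where miR-21-5p took 66.04% of the known miRNA reads against 49.4% to 59.1% in the others, and a TMM scaling factor of 0.761 against 0.986 to 1.11. The fold changes of both arms and the difference in their ratio are given with and without control library 2. Reads from exons of longer genes made up 2.60% to 5.21% of all counts for the controls and 5.43% to 6.73% with PRMT1, so on this measure the groups did not overlap (two-sided exact permutation p = 0.1, the smallest that 3 against 3 libraries allow). Its part in the results was not tested. All 7 epithelial markers had counts, with a summed level of 7746 to 10086 CPM in the controls and 7999 to 8876 CPM in PRMT1 libraries. Most of this came from miR-200a-3p, miR-200b-3p and miR-429, whereas miR-205-5p and miR-203a-3p had means under 10 CPM in each group. Summed leukocyte and blood markers reached at most 131.0 CPM, and fibroblast and smooth muscle markers at most 67.3 CPM, while the 5 pluripotency markers and miR-122-5p of liver were too low to be tested. Of the other lists, muscle markers summed to 8.85 to 12.5 CPM, neural markers to 562 to 726 CPM and endothelial markers, miR-126-3p and miR-126-5p, to 1665 to 2293 CPM. These marker ranges overlapped between groups, and their part in the results was not tested.

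MiR-31-5p was an abundant miRNA of these cells and did not pass the test for a difference between groups. Its raw counts were 126131, 86271 and 84146 in control libraries 1 to 3 and 114319, 86183 and 91870 in PRMT1 libraries 1 to 3. Scaled with TMM factors to counts per 1000000 known miRNA counts (CPM), these were 9257, 6903 and 6546 CPM in the controls and 7438, 7087 and 7684 CPM in PRMT1 libraries. The highest and the 2 lowest of the 6 levels were all control libraries, so the PRMT1 range lay inside the control range. Means were 7569 ± 1473 CPM (SD, n = 3) for the controls and 7403 ± 300.2 CPM (SD, n = 3) with PRMT1. The log2 fold change of PRMT1 over control was -0.03 (SE 0.18, 95% interval -0.43 to 0.36, adjusted p = 0.983 by edgeR). On a linear scale that interval runs from 0.744-fold to 1.29-fold.

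MiR-31-3p, the passenger by its usual description, stood several-fold lower and did not pass either. Its raw counts were 16400, 18379 and 10807 in the controls and 18029, 15215 and 15712 in PRMT1 libraries. Scaled levels were 1204, 1471 and 841 CPM in the controls and 1173, 1251 and 1314 CPM in PRMT1 libraries. Again the highest and the lowest level were controls, here libraries 2 and 3, and the groups overlapped. Means were 1172 ± 316 CPM (SD, n = 3) and 1246 ± 70.7 CPM (SD, n = 3). The log2 fold change was 0.09 (SE 0.23, 95% interval -0.44 to 0.61, adjusted p = 0.968 by edgeR), from 0.739-fold to 1.53-fold on a linear scale.

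**Figure D1:**
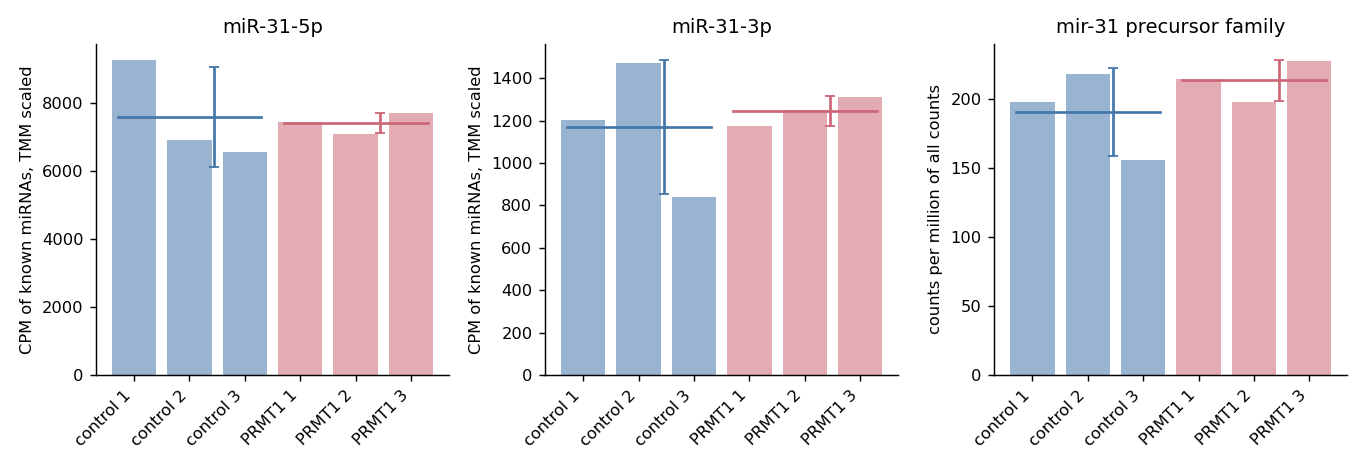
Levels of miR-31-5p and miR-31-3p (CPM of known miRNA counts after TMM scaling) and of the mir-31 precursor family row (counts per 1000000 of all counts) in the 3 control and 3 PRMT1 libraries. Bars are libraries, lines are group means and error bars are SD (n = 3). In each panel the lowest or the highest bar of a control library lies outside the PRMT1 range, and the groups overlap.

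The calls over all names give the background for these values. Of 668 known miRNAs tested by edgeR, 0 passed an adjusted p of 0.05 (0%), with 36 (5.39%) at an unadjusted p under 0.05. On the same 668 names limma-voom called 0, while DESeq2, run on all 1727 names, called 4. Neither arm was among the 36. By p, 576 names lay ahead of miR-31-5p and 491 ahead of miR-31-3p. In 68 of the 668 names (10.2%) the groups did not overlap, and in 0 of the 2 arms. The fold changes of both arms lay near the median over all tested names, a log2 value of 0.04. Their SEs were below the median SE over all tested names, 0.337.

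**Figure D2:**
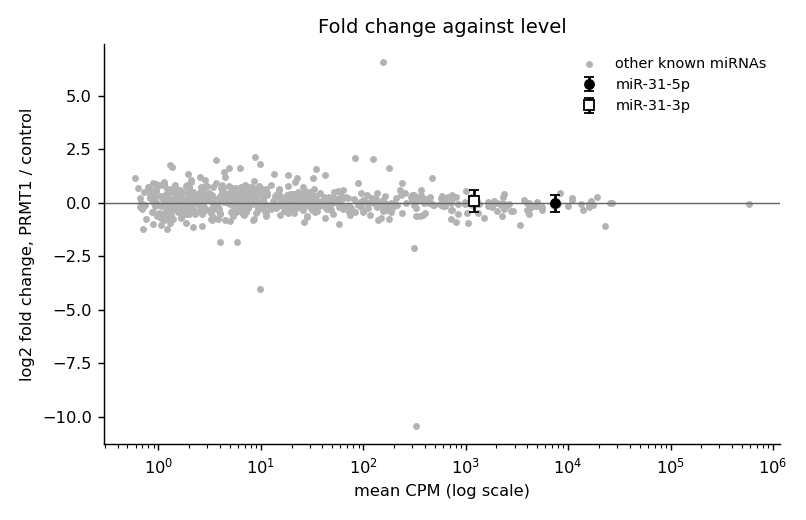
Log2 fold change of PRMT1 over control against mean CPM (log scale) for 668 known miRNAs, with 95% intervals for the 2 arms of miR-31. Both intervals include 0.

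Signs of both small fold changes depended on single control libraries. Without control library 1, where miR-31-5p was highest, its log2 fold change was 0.13 (adjusted p = 0.999 by edgeR), and without control library 3, where it was lowest, -0.19 (adjusted p = 0.825). Leaving out control library 2 gave -0.11 and leaving out PRMT1 library 1 gave -0.08. Those of miR-31-3p were -0.15 without control library 3, where it was lowest, and 0.27 without control library 2, where it was highest. With PRMT1 library 2 or 3 left out, miR-31-3p was at 0.05 and 0.04. Over all omissions the lowest adjusted p of edgeR was 0.825 for miR-31-5p and 0.725 for miR-31-3p.

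**Figure D3:**
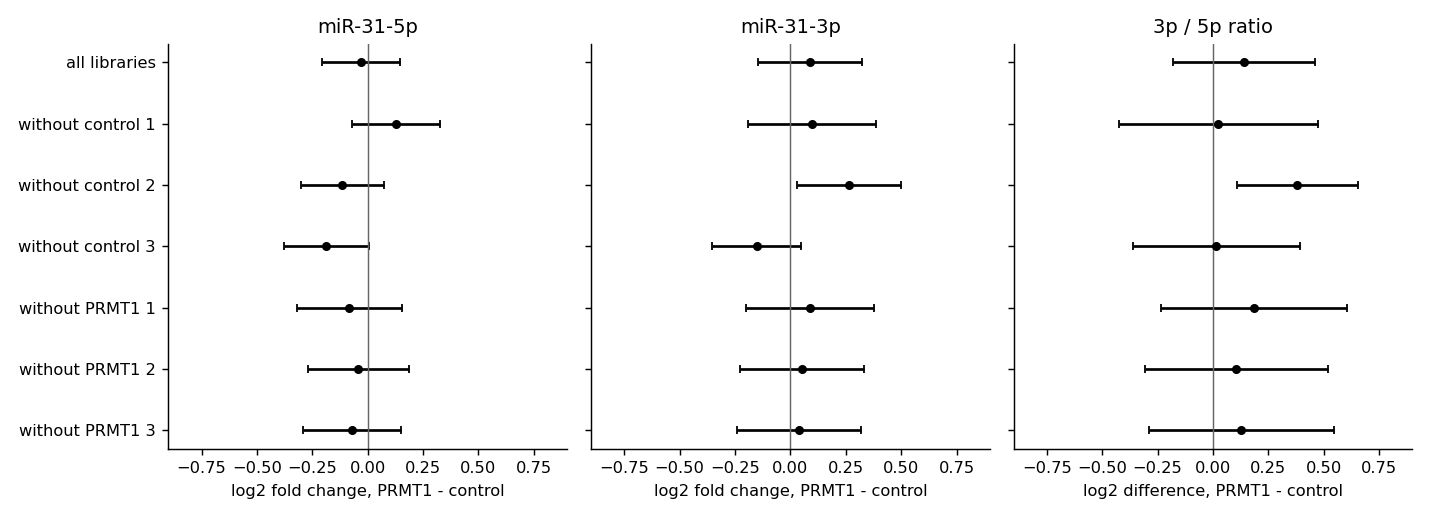
Log2 fold change of each arm and log2 difference of the 3p over 5p ratio, PRMT1 minus control, over all 6 libraries and with each library left out. Points are estimates and bars are SEs. Leaving out control library 1 turns the sign for miR-31-5p, and leaving out control library 3 turns it for miR-31-3p.

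The spread between libraries was larger in control than in PRMT1 for both arms. The SD of log2 CPM was 0.27 in the controls and 0.06 in PRMT1 libraries for miR-31-5p, and 0.41 and 0.08 for miR-31-3p. Over all 668 tested names the control SD was the larger in 340, or 50.9%. Among the 60 other names with a mean of at least 1000 CPM, it was the larger in 36. The difference in spread was not tested. Pooled within groups, the SD was 0.19 for miR-31-5p, against a median of 0.21 over the 31 names within 3-fold of its mean CPM. For miR-31-3p it was 0.29, against a median of 0.32 over 60 such names. Both arms were therefore about as variable as miRNAs of like abundance.

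By rank within each library, miR-31-5p was the miRNA at place 16, 20 and 20 in the controls and 17, 18 and 19 in PRMT1 libraries, among 1247 to 1379 known miRNAs detected. MiR-31-3p was at place 58, 52 and 65 in the controls and 57, 53 and 54 in PRMT1 libraries. The ranks of each arm overlapped between groups. MiR-31-5p held 1.02%, 0.525% and 0.729% of known miRNA counts in the controls and 0.792%, 0.724% and 0.757% in PRMT1 libraries. For miR-31-3p these shares were 0.132%, 0.112% and 0.0936% in the controls and 0.125%, 0.128% and 0.130% in PRMT1 libraries. Control library 2 had the lowest share of miR-31-5p and the highest share of miR-21-5p. The share of both arms together was 0.870% ± 0.260 (SD, n = 3) for the controls and 0.885% ± 0.0329 (SD, n = 3) with PRMT1, with a two-sided exact permutation p of 0.9, where 3 against 3 libraries allow no p below 0.1. Relative to known miRNA counts without miR-21-5p, they held 1.99% ± 0.426 and 2.11% ± 0.0257 (exact permutation p = 0.7, n = 3 per group).

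In the order of mean CPM over the 6 libraries, miR-31-5p was at place 18 and miR-31-3p at place 56. These are levels of reads per miRNA, with no length term, since mature miRNAs are of like length. Just above miR-31-5p were miR-29a-3p, which restrains collagen genes, at 8340 CPM and miR-191-5p at 7943 CPM. Just below were miR-27b-3p at 7344 CPM and miR-151a-5p at 7173 CPM, against 7486 ± 955 CPM (SD, n = 6) for miR-31-5p itself. MiR-31-5p was above each of the pair over it in 2 of 6 libraries and above each of the pair under it in 4 of 6. The neighbours of miR-31-3p, which had a mean of 1209 ± 209 CPM (SD, n = 6), were miR-425-5p at 1287 CPM, miR-96-5p at 1264 CPM, miR-20a-5p at 1165 CPM and miR-33a-5p at 1126 CPM. It was above each of these in 3 or 4 of 6 libraries. Some of these neighbours, miR-29a-3p, miR-27b-3p and miR-20a-5p among them, belong to families of near-identical miRNAs. Their levels are uncertain where counting divided reads, and the other neighbours were not checked for such relatives. These neighbours were picked as the names nearest in the order of mean CPM, and no difference in level from them was tested.

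The 5p arm was the more abundant in every library. The count of miR-31-5p was 7.69, 4.69 and 7.79 times that of miR-31-3p in the controls and 6.34, 5.66 and 5.85 times in PRMT1 libraries. As a share of both arms, miR-31-3p was at 11.5% (95% Wilson interval 11.3 to 11.7), 17.6% (17.3 to 17.8) and 11.4% (11.2 to 11.6) in control libraries 1 to 3. In PRMT1 libraries 1 to 3 it was at 13.6% (13.4 to 13.8), 15.0% (14.8 to 15.2) and 14.6% (14.4 to 14.8). These intervals cover counting error only. Control library 2 held the highest share and control libraries 1 and 3 the lowest, with the PRMT1 libraries between them. The means were 13.5% ± 3.53 (SD, n = 3) and 14.4% ± 0.712 (SD, n = 3). The control SD rested on library 2, since control libraries 1 and 3 were at 11.5% and 11.4%.

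On the log2 scale the ratio of 3p over 5p counts was -2.94, -2.23 and -2.96 in the controls and -2.66, -2.50 and -2.55 in PRMT1 libraries. The difference, PRMT1 minus control, was 0.14 (SE 0.32, 95% interval -0.58 to 0.86, adjusted p = 0.896 by limma over 170 hairpins with both arms). As a fold this interval runs from 0.670 to 1.81. The two-sided exact permutation test gave p = 0.6 (n = 3 per group). Without control library 2 the difference was 0.38 (SE 0.27, adjusted p = 0.603 by limma), and without control library 1 or control library 3 it was 0.02. With control library 2 left out the groups did not overlap, with 3p shares of 11.5% and 11.4% in control. Only 2 controls then remain against 3 PRMT1 libraries. How many of the 170 hairpins separate under that omission was not counted, so no conclusion is drawn from it. Of the 170 hairpins, 0 passed an adjusted p of 0.05 by limma (0%), with 14 (8.24%, miR-31 not among them) at an unadjusted p under 0.05, and in 20 (11.8%) the groups did not overlap. The pooled SD of the miR-31 ratio was 0.30, with 0.42 in the controls and 0.08 in PRMT1 libraries. The control SD rested on library 2, since control libraries 1 and 3 were at -2.94 and -2.96. Over the 170 hairpins the SD of the ratio was larger in control than in PRMT1 in 99. The median pooled SD over 52 other hairpins with a mean of at least 10000 counts was 0.42. The difference in spread was not tested.

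A passenger share of this size was uncommon among the abundant hairpins that could be compared. Only hairpins whose 2 arms carry the same name were compared. Abundant miRNAs whose passenger names carry a locus number, such as let-7f, were therefore left out. Summed over the libraries, miR-31-3p made up 13.8% of miR-31 counts, and miR-31 was at place 11 of the 170 hairpins by the total of both arms. Of 52 other hairpins with a mean of at least 10000 counts for both arms, a limit chosen with the values in view, 43 had a minor arm under 5%, and the median was 0.986%. Only miR-30a, with 43.8%, had a larger minor arm share over the summed libraries. The share of miR-30a is uncertain, since its 5p arm has near-identical relatives with which counting could have divided reads. Within single libraries, 1 to 3 of the 52 did. The nearest in share were miR-424 at 10.1%, miR-151a at 9.24% and miR-423 at 8.66%. The share of miR-423 is uncertain too, since its log2 ratio of 3p over 5p ran from 2.19 to 6.49 between libraries. The most abundant hairpin, miR-21, had 0.0989%, let-7i had 0.333% and miR-222 had 0.0170%. Among 99 other hairpins with a mean of at least 1000 counts, 15 had a larger minor arm share than miR-31, and among all 169 others, 60 did. Shares are of reads, and how efficiently each arm was captured in the library was not measured here.

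**Figure D4:**
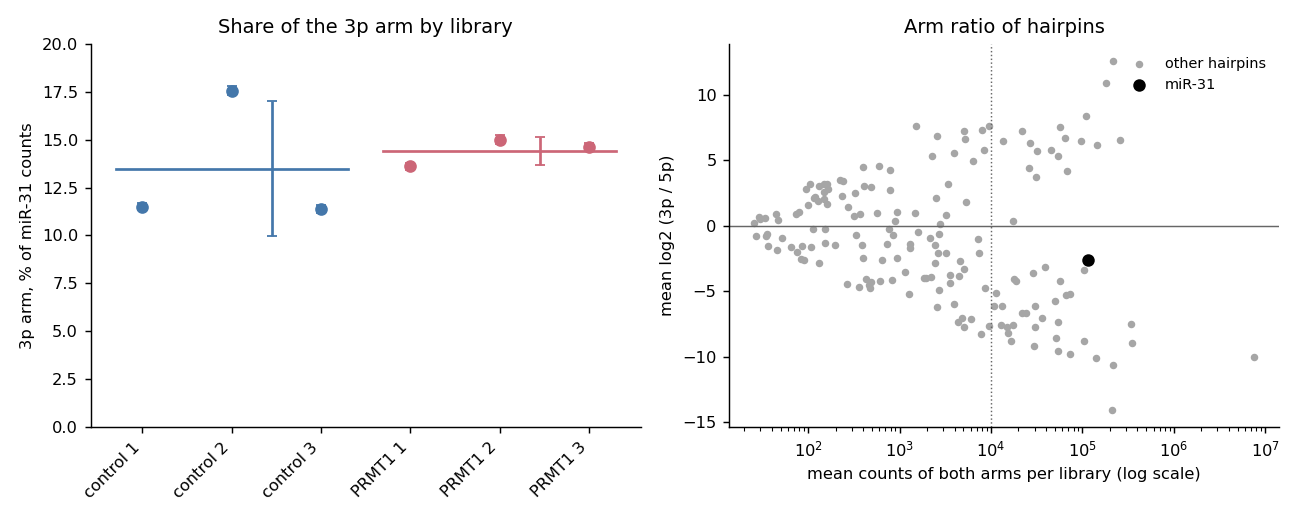
Left, miR-31-3p as a percentage of the counts of both arms in each library, with 95% Wilson intervals, group means (lines) and SD (error bars, n = 3). Right, mean log2 ratio of 3p over 5p counts of 170 hairpins against their mean counts per library (log scale), with the dotted line at 10000 counts. MiR-31 lies nearer to 0 than other hairpins right of that line except miR-30a.

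The tables also list reads of precursor families, which are counted apart from the mature names, and 1 such row was the mir-31 family. Its counts were 4854, 5474 and 3740 in the controls and 5166, 5113 and 5462 in PRMT1 libraries. By raw count control library 3 was lowest and control library 2 highest, as for miR-31-3p, whereas per 1000000 of all counts PRMT1 library 3 was highest, at 228.0. Relative to the counts of both arms the row was at 3.41%, 5.23% and 3.94% in the controls and 3.90%, 5.04% and 5.08% in PRMT1 libraries. The means were 4.19% ± 0.939 and 4.67% ± 0.668, with a two-sided exact permutation p of 0.7 (n = 3 per group). The difference of 0.483 percentage points was 1.002 with control library 2 left out and was 0.0895 with control library 1 left out. With PRMT1 library 1, 2 or 3 left out it was 0.868, 0.298 and 0.281. Which part of the hairpin these reads cover is not given in the sources used here.

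Across the 6 libraries the arms did not follow each other closely. Pearson's correlation of their log2 CPM was 0.28, a description over 6 libraries that share the scaling. In control library 2 miR-31-3p was highest, at 1471 CPM, while miR-31-5p was at 6903 CPM. The correlation without that library was not computed. The names most like miR-31-5p by this measure were miR-577 (0.93), miR-342-5p (0.89), miR-503-3p (0.89) and miR-1247-3p (0.86), all at means under 17 CPM. Those most like miR-31-3p were miR-34c-5p (0.97), miR-29c-5p (0.96), miR-362-5p (0.96) and miR-455-5p (0.96), at means of 9.05, 24.4, 302.0 and 91.3 CPM. These are the highest of 667 correlations for each arm.

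Hairpins near miR-31 on chromosome 9 gave few counts. GENCODE places 4 within 5 Mb, and all 4 lie on 1 side of it. MiR-491-5p, whose hairpin lies 0.8 Mb from MIR31, had 97 to 304 counts per library, or 8.11 to 22.3 CPM, and its log2 fold change was -0.60 (SE 0.39, adjusted p = 0.773 by edgeR). MiR-4473 had 12 to 23 counts and its log2 fold change was -0.31 (SE 0.37, adjusted p = 0.869 by edgeR). MiR-491-3p, miR-4474-3p and miR-3152-5p had at most 13 counts in any library and were not tested. Neither tested neighbour passed, and the level of miR-31-5p was over 100 times theirs in each library.

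Among other miRNAs of the settings in which miR-31 is known, none passed. Of 14 metastasis miRNAs, 11 were tested, with 5 above and 6 below 0, a median log2 fold change of -0.02 and 0 called. By mean CPM the highest were miR-21-5p (log2 -0.08), miR-222-3p (log2 0.07), miR-146a-5p, which NF-kB induces (log2 -0.20), and miR-31-5p itself. The metastasis list also held miR-10b-5p, which promotes invasion, at 646 ± 70.5 CPM (SD, n = 3) for the controls and 698 ± 56.1 CPM (SD, n = 3) with PRMT1. Of 10 squamous and keratinocyte miRNAs, 9 were tested, with 4 above and 5 below 0, a median of -0.03 and 0 called. Besides miR-21-5p and miR-146a-5p, its highest were miR-24-3p (log2 -1.08, SE 0.85) and miR-31-5p. Over all 668 tested names, 360 lay above and 308 below 0, with 0% called. In these lists miR-31-5p stood far above miR-205-5p and miR-203a-3p, the keratinocyte miRNAs at 4.82 ± 1.14 CPM and 3.09 ± 0.717 CPM (SD, n = 3) in control. With PRMT1, miR-205-5p was at 7.92 ± 1.43 CPM and miR-203a-3p at 3.43 ± 0.672 CPM (SD, n = 3). Their log2 fold changes were 0.72 (SE 0.31, adjusted p = 0.741 by edgeR) and 0.15 (SE 0.32, adjusted p = 0.953 by edgeR).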

How the data were processed

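BGI sequenced the reads on BGI-500 and filtered them, per the series' design text. The submitters' processing notes list HISAT, Bowtie2, RSEM and the build GRCh37.p13 with no version or role, and the handling of reads with several matches is not given in the sources used here. Per the labels, the protocol is one for messenger RNA or RNA depleted of ribosomal RNA, although small RNA classes fill the tables. The deposited counts are whole reads per feature, per the file headers. The deposited TPM values matched counts per 1000000 of the library total to within 0.005 and were not used further. A feature absent from a library's table was taken as 0.

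Known miRNAs were rows of the class mature. The filter filterByExpr left 668 names with 99.98% of known miRNA counts. The group test was the quasi-likelihood test of edgeR 4.0.16 (robust, TMM scaling), and adjusted p-values are Benjamini-Hochberg over these names. SEs are the fold change over the root of F. Arm ratios were log2 of counts plus 0.5, for hairpins with a mean of at least 10 counts on each arm, tested with limma 3.58.1 (trend, robust). Other comparisons used exact permutation tests. DESeq2 1.42.0, other scalings and filters, a replicate block and omission of each library were tried. Both fits were tested on simulated data. The members and lists were chosen with earlier results of these data known. Named miRNAs were the arms, their neighbours in level, the 4 most correlated with each, names sharing the seed or lying within 5 Mb, and the most abundant members of each list. Other names were chosen after their values were seen.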

Additional observations from a re-analysis of the deposited data

How the results depend on the processing

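Neither arm, nor their ratio, passed an adjusted p of 0.05 under any of the alternatives run. The log2 fold change of miR-31-5p was -0.03 over all libraries, 0.00118 with scaling to the known miRNA total only, and -0.19 to 0.13 with each library left out. That of miR-31-3p was 0.09, -0.0587 with all classes of rows in the fit, and -0.15 to 0.27 with each library left out. The log2 difference of the arm ratio was 0.14, and 0.02 to 0.38 with each library left out. The share of both arms in known miRNA counts differed by 0.0154 percentage points, by -0.000587 relative to all counts, and by -0.101 to 0.155 with each library left out. The lower end came without control library 2, and the upper end without control library 1, where the groups no longer overlapped (exact permutation p = 0.1, the smallest that 2 against 3 libraries allow). Leaving out control library 3 gave -0.00821 and leaving out PRMT1 library 1 gave -0.000642. The difference in the precursor row was 0.0895 to 1.002 percentage points under the same omissions, which were added for this row once the data were known. The count of known miRNAs called, 0, was 4 with DESeq2 and 9 with edgeR when both were run without the filter. With each library left out it was 0 to 1, the 1 without PRMT1 library 1. A replicate block, by the number in the titles, made it 1, and the arm ratio difference stayed at 0.14 (adjusted p = 0.874 by limma). Deviations of same-numbered libraries had correlations of -0.14, 0.18 and -0.15, so the numbers were not taken to pair the libraries. The cause of these changes was not tested. With 3 libraries per group, the 95% intervals leave room for folds from 0.744 to 1.29 for miR-31-5p and from 0.739 to 1.53 for miR-31-3p.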
